A study of Mus musculus with 10 samples.

Results

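The genes described here encode the proteins of the cytoplasmic ribosome, and their mRNAs were measured in hippocampal synaptoneurosomes, a preparation enriched in pinched-off and resealed synapses. Members were all protein-coding genes whose symbol begins with Rpl or Rps followed by a number, with or without the endings a, x, l, l1 or al, together with Rpsa, Rplp0, Rplp1 and Rplp2. Within the family the symbols chose the members, and no measured value did, but the family was taken up with earlier results of these data known. The symbol rule gave 83 of the 22255 genes in the gene table, 52 of the large subunit and 31 of the small subunit. The mice were wild-type C57Bl/6J. Vehicle-treated animals gave 5 libraries, and 5 more came from animals given AM6545 sub-chronically. AM6545 blocks the cannabinoid receptor CB1 and reaches the brain only poorly. The labels name no dose, duration, age, sex or batch, and do not say whether a library is 1 animal or a pool. Every p-value below therefore weighs a group difference only against the spread between these libraries. The question for the members was whether their mRNA content in this fraction differed with the drug.

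Each cytoplasmic ribosome is built from a small subunit, which reads the mRNA, and a large subunit, which joins the amino acids. Every ribosome needs close to equal copies of its core proteins. Their mRNAs are among those known to be carried into dendrites and axons, where local synthesis can refresh ribosomes far from the cell body. Most of them begin with a 5′ terminal oligopyrimidine tract, called TOP, a cytosine at the cap followed by a run of pyrimidines, through which the mTOR pathway and the RNA-binding protein LARP1 control their translation.

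The start sites of the members are shown because this shared tract is what the family is best known for. RefSeq start sites (GRCm38.p6) were at hand for 63 of the 83 members. Each line gives the 10 bases before an annotated start and the 15 bases from it on, on the transcribed strand, with the pyrimidine tract in capitals. The regions lie at chr4:86857353-86857377 (minus strand) for Rps6, chr7:4792955-4792979 (plus) for Rpl28, chr7:141447641-141447665 (plus) for Rplp2, chr9:120571507-120571531 (plus) for Rpl14, chr11:114668570-114668594 (plus) for Rpl38, chr16:33056472-33056496 (plus) for Rpl35a, chr17:27635230-27635254 (minus) for Rps10 and chr17:46782642-46782666 (minus) for Rpl7l1.
Rps6: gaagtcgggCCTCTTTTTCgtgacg
Rpl28: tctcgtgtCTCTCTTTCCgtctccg
Rplp2: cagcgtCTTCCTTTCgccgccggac
Rpl14: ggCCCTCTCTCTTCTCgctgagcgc
Rpl38: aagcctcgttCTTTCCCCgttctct
Rpl35a: gcttgCCTTCCTCTTTCCgccatct
Rps10: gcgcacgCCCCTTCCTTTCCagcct
Rpl7l1: gctgcgcaagcgcagtagctgaagc

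The upper 7 sequences carry a tract, which begins at the annotated start in Rpl38 and before it in the other 6. The last, that of Rpl7l1, a longer relative of Rpl7, has none in this window. These upper 7 are not typical of the family, as all have a C at the annotated start. Rpl13, Rpl4 and Rpsa, among others, have no tract, and Rpl35a has further annotated starts without one. A tract was counted where a C was followed by at least 4 further C or T within 10 bases of an annotated start, on the transcribed strand only. It was present in 39 of the 63 members (61.9%), against 34.9% of 17492 protein-coding genes of the same RefSeq table. A C exactly at the annotated start, with at least 4 further C or T after it, was present in 13 members (20.6%), against 2.67% of those genes. This C could lie inside a tract that began earlier, as in Rps6 and Rpl28. The shares with a tract within 10 bases were 60% of 40 large subunit members and 65.2% of 23 small subunit members. An annotated start can lie some bases away from the cap site in this tissue, which these data did not measure. The letters are a description of the reference, not of the mRNA in these libraries. The 36 tested members with a tract and the 24 without had the same median difference between the groups, -0.07 on the log2 scale. Their median spread between libraries was also close, with an SD of log2 CPM of 0.27 and 0.26 (CPM is the count scaled to 1000000 per library).

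Library totals ran from 18106112 to 25899794 estimated counts. The 10 listed dendritic and synaptic mRNAs, among them Camk2a, Shank1 and Snap25, were present in every library, with a mean log2 CPM of 7.81 to 8.11. Markers of astrocytes (8.06 to 8.51), oligodendrocytes (8.64 to 9.70) and microglia (6.28 to 6.75) were present in every library as well, so the fraction also held glial RNA. The 10 choroid plexus and ependyma markers averaged 1.33 in vehicle 4 and 3.90 to 6.05 in the other libraries, and the 5 red blood cell markers averaged 7.44 in AM6545 3 and 5.19 to 6.75 elsewhere.

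The members together held 0.477% to 0.771% of all counts in a library. Of the 83, 80 passed the filter on low counts, 49 of the large and 31 of the small subunit, among 14358 genes in all. The other 3 were Rpl3l, Rpl10l and Rpl39l, the relatives of Rpl3, Rpl10 and Rpl39, of which Rpl3l is known from muscle and Rpl10l and Rpl39l from the testis. Rpl3l had 1 to 12 counts in a library, Rpl39l 0 to 2 and Rpl10l 0 to 1. Rpl10l had its only count in vehicle 1. Every other member had at least 194.5 counts in every library.

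Levels were compared between genes per length: counts divided by annotated transcript length, scaled so that each library sums to 1000000. On this scale the 80 members had a median level of 152 and ranged from 36.6 for Rpl22 to 700 for Rpl13, a 19.1-fold range, with the middle of the family between 108 and 205 (the quartiles). Large and small subunit members had nearly the same median level, 151 and 152. The order was stable: between any pair of libraries, the log2 levels of the 80 members correlated at 0.968 to 0.992 over 45 pairs, a correlation across genes, which are not independent replicates. The level showed no marked relation to mRNA length (across the 80 members, r = 0.041, rho = 0.176). The lengths were annotated, not effective, lengths and make no allowance for fragment size. How far this moves the levels of short members, or that relation, was not tested. Of the 78 steps from a member to the next lower one in its subunit, 68 were smaller than the smaller SD of the pair. These SDs include the movement that members share from library to library, so a smaller step can still recur within most libraries.

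In the large subunit, Rpl13 had the highest level per length in each of the 10 libraries, from 581 in AM6545 1 to 902 in vehicle 1 (700 ± 97.9, SD, n = 10). Rpl3, which reaches towards the peptidyl transferase centre, followed at 471 ± 39.5 and Rpl4, which lines the exit tunnel, at 453 ± 39.3. Rpl3 and Rpl4 differed by less than their spread, yet Rpl4 was above Rpl3 only in vehicle 5 (449 against 444). Rpl41, the smallest ribosomal protein, came next at 331 ± 57.3, close to Rplp0 at 316 ± 44.6.

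The lowest large subunit level per length was that of Rpl22, 36.6 ± 3.72, and Rpl39, a small protein of the exit tunnel, stood at 39.1 ± 7.36, within that spread. Rpl36a followed at 56.3 ± 8.53 and Rpl35 at 57.4 ± 14.9, also not apart from each other. Rpl22 and Rpl39 held places 78 to 80 of 80 in every library.

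In the small subunit, Rps6, the ribosomal protein phosphorylated by S6 kinase, had the highest level per length at 400 ± 40.0, and Rps9 stood at 379 ± 57.2, inside that spread. Rps2 and Rps14 followed at 270 ± 29.4 and 266 ± 49.5. The lowest was Rps15a at 38.4 ± 6.43, below Rps27l at 55.8 ± 11.3, Rps20 at 56.3 ± 9.91 and Rps27 at 61.6 ± 10.8, which did not separate from each other. The Rps15a level rests on how its counts were assigned. Its leading transcript held 53.4% of them, and the mean length over its transcripts was 1204 bases, long for a member (median 698.5 bases).

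**Figure D1:**
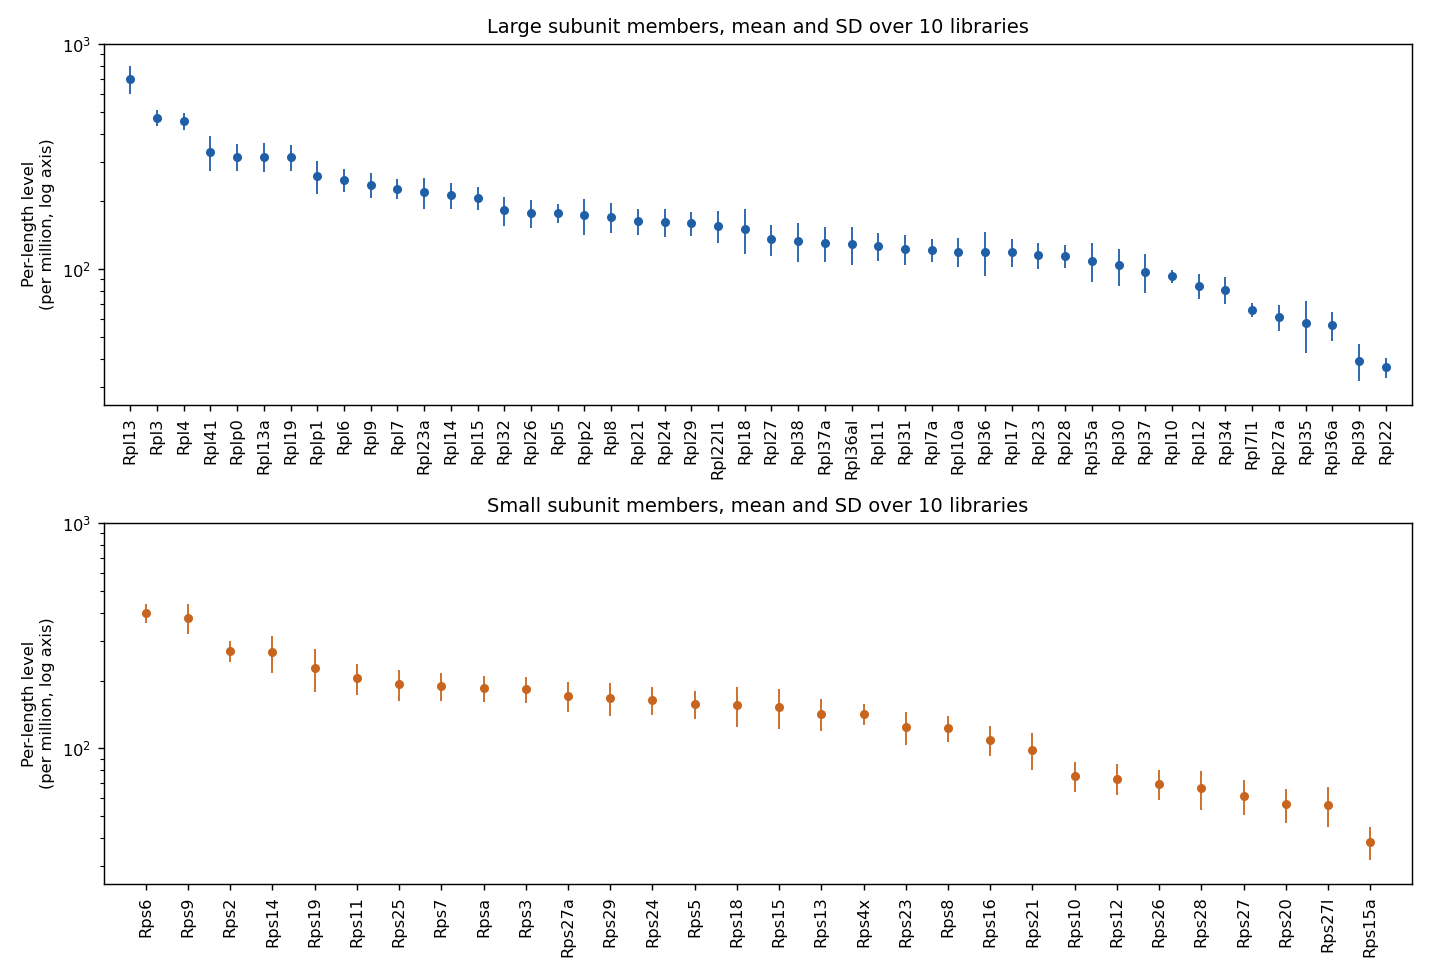
Level per length of 78 of the 80 tested members (log axis, scaled to 1000000 per library), with the mean as a point and the SD over 10 libraries as a line, large subunit above and small subunit below. Rpl13 stands at 700 and Rpl22 at 36.6, the ends of the family, and most neighbours in the order lie within an SD of each other.

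The proteins of the stalk, which recruits elongation factors to the large subunit, were not at equal mRNA levels. Rplp0, the base of the stalk, had 316 ± 44.6 per length, Rplp1 259 ± 43.5 and Rplp2 173 ± 31.02. In all 10 libraries Rplp0 was above Rplp2. Their mean transcript lengths were 1205 (Rplp0), 499 (Rplp1) and 529 bases (Rplp2), so the place of Rplp0 may rest on the use of annotated lengths. Rpsa, the small subunit protein also known as a laminin receptor, had 186 ± 24.4. Rpl5 and Rpl11, which join the 5S rRNA and can bind Mdm2, had 177 ± 17.5 and 126 ± 17.8. Rps27a, made as a fusion with ubiquitin, had 171 ± 26.2, and Rps19, a gene mutated in Diamond-Blackfan anaemia, had 226 ± 49.3. Rpl5, Rpl11, Rps27a and Rps19 were picked for their roles after their values had been seen.

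Members with like names fell into different patterns. Rpl22l1 (156 ± 25.5 per length) was above Rpl22 (36.6 ± 3.72) in all 10 libraries, and Rpl36al (129 ± 25.1) above Rpl36a (56.3 ± 8.53) in all 10. Rpl7 (227 ± 23.5) was above Rpl7l1 (65.9 ± 4.89) in every library, whereas Rps27 (61.6 ± 10.8) and Rps27l (55.8 ± 11.3) overlapped. Rpl3l, with a mean of 0.375 per length against 471 for Rpl3, and Rpl39l, with 0.0857 against 39.1 for Rpl39, were close to absent, as was Rpl10l beside Rpl10 (92.8 ± 5.88). Rps4x, the X-linked form of a small subunit protein, had 142 ± 15.4, and its relative Rps4l matched no row and is not analysed here.

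Many ribosomal protein genes have processed pseudogenes whose sequence is nearly the same, and reads from such stretches can be assigned to either copy. The share of a member's 31-base words that also occurs in another gene of the GENCODE M21 annotation had a median of 27.3%, but only 1.62% (median) occurred in other genes of the count table. The share with the annotation was over 50% for 8 members, the highest being Rpl36 (94.1%), Rpl35 (88.8%), Rpl23a (83.0%) and Rplp1 (75.1%). Within the table it was over 50% for Rpl35 (86.9% in all, 60.7% with Wdr38) and Rpl23a (53.3%, with Tlcd1), so their levels are uncertain. Of 300 symbols of that annotation named as ribosomal protein pseudogenes, 4 had a row in the table. The largest of these, Rpl10-ps3, held 628.2 to 1141.2 counts, beside 657.2 to 925.4 for Rpl10, with which it shares 31.9% of the words of Rpl10, so the Rpl10 level is uncertain too. Rps27rt, which shares 27.4% of the words of Rps27, held 134.5 to 315.2 counts beside 194.5 to 423.8 for Rps27.

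The clearest feature of the members was that they moved together from library to library. Their summed share of counts was 0.771%, 0.477%, 0.560%, 0.557% and 0.606% in vehicle 1 to 5 and 0.481%, 0.647%, 0.613%, 0.523% and 0.588% in AM6545 1 to 5. Vehicle 1 was the highest and vehicle 2 the lowest of all 10, and the AM6545 libraries lay between them. The mean share of the vehicle group was 0.594% ± 0.109 and that of the AM6545 group 0.571% ± 0.0673 (SD, n = 5 each), a difference of -0.0237 percentage points, smaller than either SD. In such bulk samples, less RNA per synapse and fewer synapses or cells of a kind cannot be told apart.

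**Figure D2:**
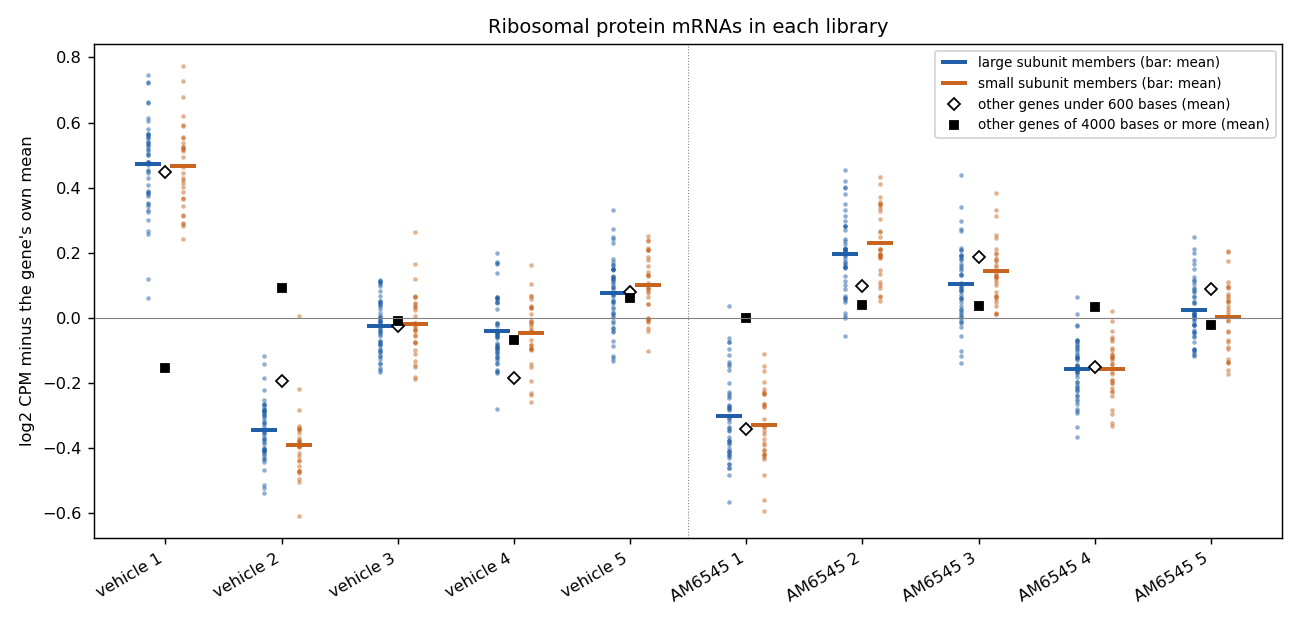
Log2 CPM of each tested member minus its own mean over 10 libraries (small points; blue large, orange small subunit; bars are subunit means), with the mean of other genes under 600 bases (open diamonds) and of 4000 bases or more (black squares). Members average 0.47 above their own means in vehicle 1 and 0.36 below them in vehicle 2, and the large and small subunit means stay close in every library.

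Over the 10 libraries, the log2 CPM of pairs of members had a median Pearson correlation of 0.877, with 90% of the 3160 pairs between 0.616 and 0.969 and all pairs above 0. Without vehicle 1 the median was 0.839, with 3151 of the 3160 pairs above 0 and a lowest value of -0.37; without vehicle 2, 3158 pairs were above 0, and by Spearman correlation 3157. The points of such a correlation share their libraries and depth, so it is given as a description. The median was 0.878 between large subunit members, 0.875 between small subunit members and 0.877 across the subunits. For members against all other tested genes it was -0.010. With the group means removed, the median over members was 0.887, and within the vehicle and AM6545 libraries alone it was 0.933 and 0.892 (n = 5 each). All 3160 pairs were above 0 in the vehicle libraries (lowest 0.191) and 3083 in the AM6545 libraries (lowest -0.86), a difference that was not tested.

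A single axis (the first principal component) held 86.7% of the members' variance, with all 80 on the same side of it, against 27.5% for all tested genes. Rps18 (median correlation with the other members 0.938) and Rpl14 (0.937) followed the family most closely. Rpl7l1 (0.625) and Rpl39 (0.673) followed it least. The second axis held 5.6%. It set Rplp0, Rpsa, Rpl3 and Rpl4 against Rpl39, Rpl38, Rpl22l1 and Rps28, and its lowest scores were those of vehicle 1 (-0.89), AM6545 1 (-0.71) and vehicle 4 (-0.55), its highest those of AM6545 2 (0.69) and vehicle 5 (0.62). Both groups had libraries at either end. Rpl38 was named here after its values had been seen.

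The balance between the subunits moved far less than the family's total. The ratio of large to small subunit counts lay between 1.95 and 2.11. On the log2 scale it was 1.02, 1.08, 0.98, 1.06 and 0.98 in vehicle 1 to 5 and 1.07, 0.96, 0.97, 1.04 and 1.03 in AM6545 1 to 5. The groups overlapped, with means of 1.02 ± 0.0445 and 1.01 ± 0.0468 (SD, n = 5 each). The ratio spanned 0.12 over the 10 libraries while the members' mean log2 CPM spanned 0.83. Per length, the large subunit held 63.9% to 65.6% of the members' summed level.

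**Figure D3:**
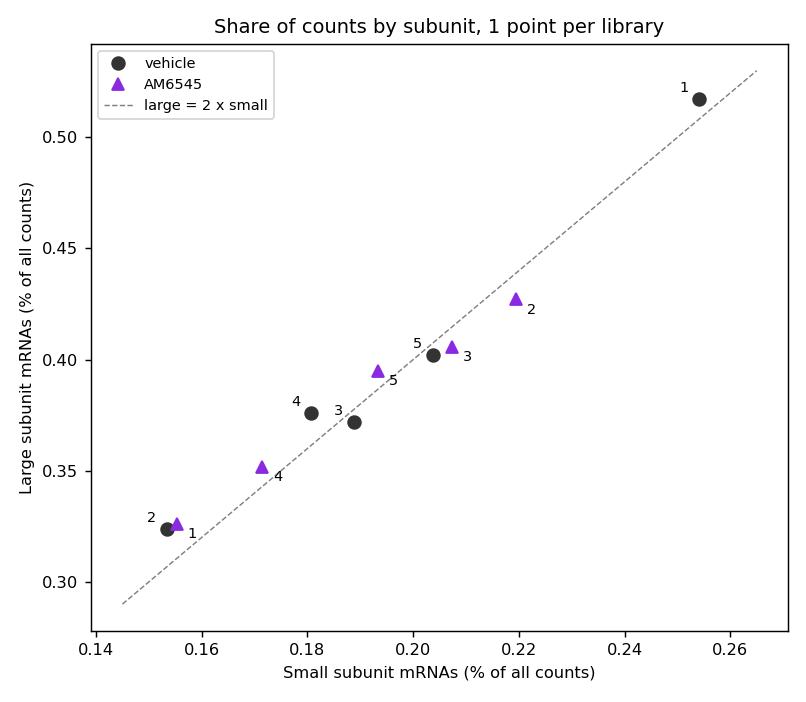
Share of all counts held by large subunit members (vertical axis, %) against small subunit members (horizontal axis, %), with each library as a point numbered by replicate (black circles vehicle, purple triangles AM6545) and a dashed line where large is 2 times small. Libraries run along the line from vehicle 2, with 0.324% and 0.153%, to vehicle 1, with 0.517% and 0.254%, and the groups are mixed along it.

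How much a member varied between libraries went with the length of its mRNA. The median SD of log2 CPM over 10 libraries was 0.27 for the members and 0.21 for all tested genes, and the highest library was 1.83 times the lowest for the median member (range 1.34 to 2.44). The coefficient of variation was largest for Rpl36 (27.6%) and Rpl35 (26.8%) and smallest for Rpl7l1 (9.22%) and Rpl22 (10.01%). The 25 members under 600 bases had a median SD of 0.30, the 42 of 600 to 1000 bases 0.26 and the 13 of 1000 bases or more 0.20. Across the 80 members the SD and the length correlated at r = -0.693 (rho = -0.714).

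Rpl36 (383 bases) had 38.7, 15.9, 23.1, 20.6 and 24.1 CPM in vehicle 1 to 5 and 16.8, 28.1, 26.7, 19.6 and 24.6 CPM in AM6545 1 to 5. Rpl7l1 (2273 bases) had 94.8, 69.8, 70.5, 74.6 and 75.4 CPM in vehicle and 79.0, 76.9, 74.1, 75.9 and 81.9 CPM in AM6545 libraries. Vehicle 1 was highest for both genes and vehicle 2 lowest for both, yet Rpl36 spanned a 2.44-fold range and Rpl7l1 a 1.36-fold range.

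Other short mRNAs showed a like spread and moved the same way. Among genes outside the family, the median SD was 0.33 for 144 genes under 600 bases, 0.27 for 720 of 600 to 1000 bases, 0.22 for 3152 of 1000 to 2000 bases, 0.20 for 5977 of 2000 to 4000 bases and 0.20 for 4264 longer genes. Their median correlation with the members' mean was 0.722, 0.756, 0.413, -0.190 and -0.227 in the same order. In vehicle 1, where members stood 0.47 above their own means (log2), other genes under 600 bases stood 0.45 above and those of 4000 bases or more 0.15 below. In AM6545 1, where members stood 0.31 below, the short genes stood 0.34 below and the long genes were at 0.00. The match was looser in some other libraries. In vehicle 2 members stood 0.36 below and the short genes 0.20 below, and in vehicle 4 the values were 0.04 and 0.18 below. The part of mRNA length in the members' movement was not tested.

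**Figure D4:**
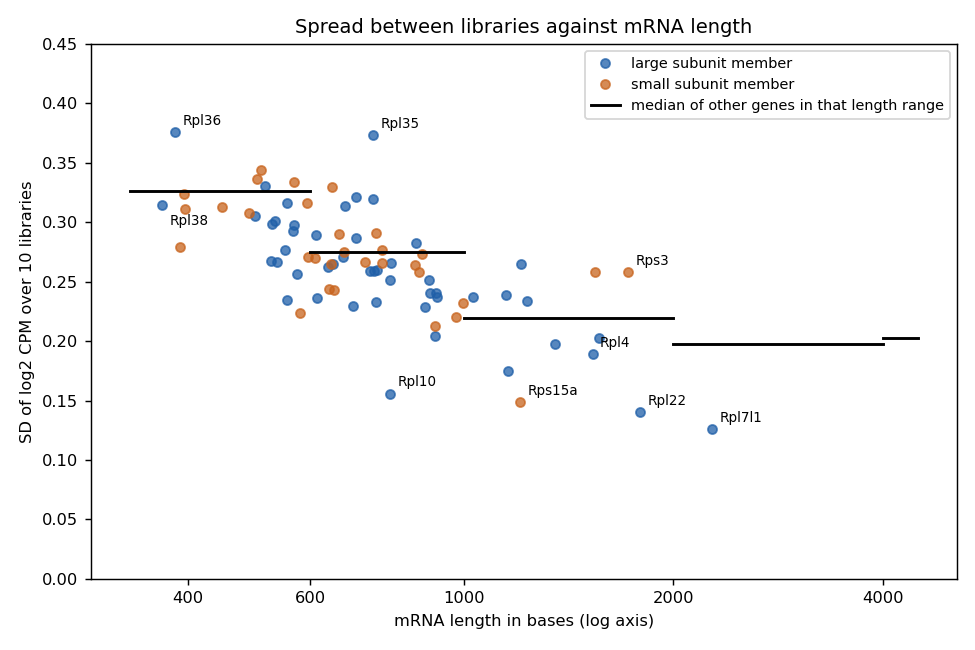
SD of log2 CPM over 10 libraries (vertical axis) against mRNA length in bases (horizontal log axis) for the 80 tested members (blue large, orange small subunit), with black lines for the median of other genes in each length range. Rpl36 (383 bases) lies near 0.38 and Rpl7l1 (2273 bases) near 0.13, and the black lines fall from 0.33 under 600 bases to 0.20 above 2000 bases.

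Some marker lists also moved with the members. All 7 inhibitory neuron markers were in the table, with none at 0 throughout, and their mean log2 CPM followed the members' mean with r = 0.811 (n = 10 libraries). It ranged from 5.49 to 6.03 in vehicle and from 5.54 to 5.89 in AM6545 libraries, with vehicle 1 (6.03) and AM6545 2 (5.89) highest and vehicle 2 (5.49) lowest. The 10 endothelial and pericyte markers gave 0.585, the 8 excitatory neuron markers -0.530, the 4 oligodendrocyte precursor markers -0.489, the 10 choroid plexus and ependyma markers 0.124 and the 10 dendritic and synaptic mRNAs -0.163. The 13 mitochondrially encoded mRNAs gave 0.474, and the 1 nuclear RNA in the table, of 6 listed, -0.439. The part of these cell types and RNAs in the members' movement was not tested.

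The genes outside the family and the other lists that followed the members' mean most closely were Ndufs5 (r = 0.996 over 10 libraries), Ndufa13 (0.978), both subunits of respiratory complex I, and Marf1 (0.977). Marf1, unlike the short genes above, has a length of 7751 bases, and it had only 5.12 to 9.71 CPM. Ndufs5 had 140, 72.5, 95.8, 91.8 and 101 CPM in vehicle 1 to 5 and 73.3, 113, 102, 85.8 and 98.5 CPM in AM6545 1 to 5, so its highest and lowest libraries were the members' own.

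No member passed the test between AM6545 and vehicle. With edgeR's quasi-likelihood test and Benjamini-Hochberg adjustment over 14358 genes, 0 of 80 members had an adjusted p under 0.05 (background 0%) and none was below 0.9999. The count at an unadjusted p under 0.05 was 0 of 80, where 1.88% of all genes passed. DESeq2's Wald test and limma-voom also gave 0 members at either threshold. No member had its AM6545 libraries all below or all above its vehicle libraries, which held for 0.118% and 0.174% of all genes. The median standard error of a member's log2 fold change was 0.15, and the 95% interval of every member spanned 0. The intervals differed in width, from -0.20 to 0.22 for Rpl7l1 to -0.53 to 0.36 for Rpl36.

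The estimates leaned slightly to the lower side. The log2 fold change was below 0 for 67 of 80 members, where 51.9% of all genes were below 0, and its median was -0.07, against -0.01 for all genes. It was -0.07 for the large (42 of 49 below 0) and -0.07 for the small subunit (25 of 31 below 0). Since the members move together, these signs are far from separate observations. Without vehicle 1 the median turned to 0.06, with 10 of 80 members below 0, and without vehicle 2 it was -0.16, with 78 below 0 and 2 members at an unadjusted p under 0.05. Other short mRNAs leaned the same way. Outside the family the median log2 fold change was -0.04 under 600 bases, -0.11 at 600 to 1000 and -0.06 at 1000 to 2000 bases. It was 0.01 at 2000 to 4000 bases and 0.03 for longer genes. The part of mRNA length in the members' lean was not tested.

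**Figure D5:**
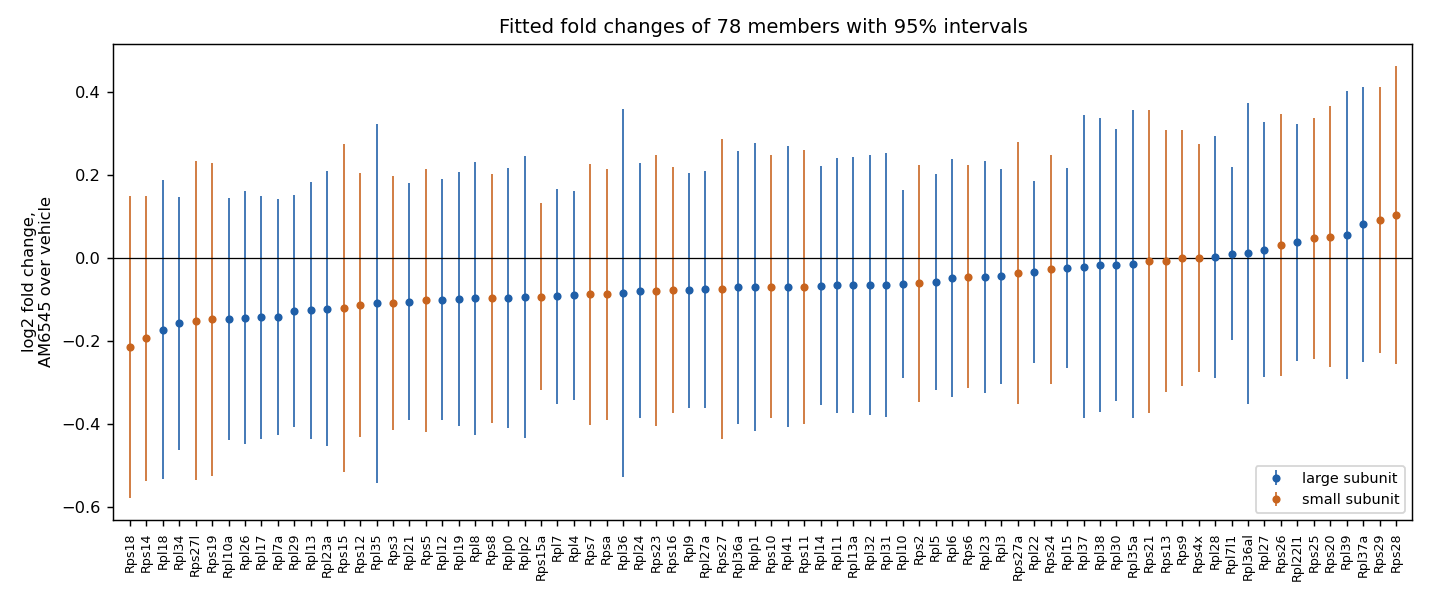
Fitted log2 fold change, AM6545 over vehicle, of 78 of the 80 tested members with 95% intervals (blue large, orange small subunit), ordered by size. Values run from -0.21 for Rps18 to 0.10 for Rps28, and every interval spans 0.

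Among the members of smallest p on the lower side were Rps18 and Rps14. Rps18 had 71.9, 32.8, 46.9, 43.8 and 51.9 CPM in vehicle and 33.9, 51.4, 47.5, 36.9 and 43.6 CPM in AM6545 libraries. Its groups overlapped, with vehicle 1 again the highest and vehicle 2 the lowest, and its log2 fold change was -0.21 (SE 0.17; edgeR, unadjusted p = 0.229). Rps14, a protein near the mRNA channel of the small subunit, had 124, 58.1, 84.3, 79.9 and 92.9 CPM in vehicle and 63.7, 89.1, 83.2, 63.8 and 83.9 CPM in AM6545 libraries. It overlapped in the same way, with a log2 fold change of -0.19 (SE 0.16; edgeR, unadjusted p = 0.248). Without vehicle 1 the fold changes of both were at -0.04.

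On the higher side the members of smallest p were Rps28, Rps29 and Rpl37a, whose products are short proteins. Rps28 had 17.0, 9.85, 12.4, 11.4 and 15.1 CPM in vehicle and 9.91, 16.8, 17.5, 12.2 and 14.4 CPM in AM6545 libraries. The groups overlapped almost fully, with a log2 fold change of 0.10 (SE 0.17, 95% interval -0.26 to 0.46; edgeR, unadjusted p = 0.549). Rps29 (log2 fold change 0.09; edgeR, unadjusted p = 0.560) and Rpl37a (0.08; unadjusted p = 0.611) overlapped between the groups as well.

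The members at the ends of the level order and those of known special roles did not pass the test either. Rpl13 had 416, 217, 288, 263 and 305 CPM in vehicle and 228, 293, 321, 264 and 259 CPM in AM6545 libraries, and its log2 fold change was -0.13 (SE 0.15, 95% interval -0.43 to 0.18; edgeR, unadjusted p = 0.402). Rps6 had 251, 147, 181, 190 and 186 CPM in vehicle and 159, 212, 194, 172 and 189 CPM in AM6545 libraries, a log2 fold change of -0.05 (SE 0.13, 95% interval -0.31 to 0.22; edgeR, unadjusted p = 0.723). In both genes the AM6545 values lay inside the vehicle range.

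The stalk genes Rplp0, Rplp1 and Rplp2 had log2 fold changes of -0.10, -0.07 and -0.09, and Rpsa -0.09, all with intervals that span 0. Rpl22 and Rpl22l1 had -0.03 (95% interval -0.25 to 0.19) and 0.04 (-0.25 to 0.32), so neither member of this pair was shown to differ. Rpl3, Rpl4 and Rpl41 had -0.04, -0.09 and -0.07, and Rps9 and Rps4x 0.00 each.

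The transcript table allowed the same comparison for the isoforms of the members. It held 500 of their transcripts, of which 253, from all 80 genes, could be tested. The leading transcript held over 90% of the counts in 25 members and under 60% in 26. With edgeR over 31848 transcripts, 0 of the 253 had an adjusted p under 0.05 (background 0.00314%), and 4 had an unadjusted p under 0.05, where 1.97% of all transcripts did. DESeq2 gave 0 and 5. Of the 253, 1 lay wholly below its vehicle libraries in all AM6545 libraries and 1 wholly above, against 0.251% and 0.283% of all transcripts.

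Among these on the higher side was Rpl4-202. This 596-base transcript with 0.277% of the counts of Rpl4 had 0.708, 0.674, 0.692, 0.508 and 0.433 CPM in vehicle and 1.42, 2.502, 0.935, 1.08 and 1.12 CPM in AM6545 libraries. The groups did not overlap; the log2 fold change was 1.22 (SE 0.35; edgeR, unadjusted p = 0.00555).

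On the lower side stood Rps27-201 and Rps12-204. Rps27-201, with 9.91% of the counts of Rps27, had 3.35, 1.37, 1.53, 1.03 and 2.60 CPM in vehicle and 0.765, 0.638, 1.19, 0.618 and 1.09 CPM in AM6545 libraries. Only vehicle 4 overlapped with the AM6545 libraries, and the log2 fold change was -1.21 (SE 0.39; edgeR, unadjusted p = 0.0105). Rps12-204, with 4.14% of the counts of Rps12, had 1.06 to 1.36 CPM in vehicle and 0.460 to 1.05 CPM in AM6545 libraries, which did not overlap, and a log2 fold change of -0.77 (SE 0.29; edgeR, unadjusted p = 0.0248). The totals of the genes Rpl4, Rps27 and Rps12 had log2 fold changes of -0.09, -0.07 and -0.11. These transcripts are minor isoforms whose estimates rest on how reads were divided within a gene, and none passed the adjustment.

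Other genes of the translation machinery were read from lists. Fau, Rps3a1 and Rack1 are ribosomal proteins whose symbols fall outside the pattern. They correlated with the members' mean at r = 0.990, 0.960 and 0.755, and their log2 fold changes were -0.11, -0.08 and -0.07. Fau had 72.2, 33.7, 44.4, 42.8 and 49.1 CPM in vehicle and 34.6, 52.5, 48.6, 40.2 and 48.0 CPM in AM6545 libraries, and its r was the highest in these lists. Vehicle 1 and vehicle 2 were again its extremes.

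The 12 genes of the elongation factor list (median r 0.613) had a median log2 fold change of -0.02, with 4 above and 8 below 0. This list also holds Etf1 and Gspt1, which act at the end of translation, and Eef2k, the kinase of Eef2. The 13 other TOP mRNAs, such as Tpt1, had a median r of 0.755 and a median fold change of 0.01, with 7 above and 6 below. The 14 regulators of TOP mRNAs and sensors of translation (median r 0.00) did not as a set follow the members' mean closely. Nor did the 32 ribosome assembly genes (0.168). Single genes went both ways, from Sbds (0.728) to Rps6ka1 (-0.654) among the regulators and sensors. Among the assembly genes they ran from Bccip (0.778) to Rrn3 (-0.718). The median fold changes of both lists were 0.05, with 8 and 21 genes above 0. No gene of these 5 lists passed an adjusted or an unadjusted p of 0.05 in edgeR. None passed the adjusted threshold with DESeq2 or limma-voom, and the unadjusted threshold was passed by 1 gene with DESeq2 (Rps6kb1) and by 3 with limma-voom (Rps6kb1, Bop1 and Nop2).

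In each list the gene of smallest p is given with its log2 fold change and edgeR's unadjusted p. Eef1a2, the neuronal form of elongation factor 1A, had 0.28 (SE 0.16, unadjusted p = 0.0948). Eif4b, an initiation factor, had 0.14 (SE 0.10, unadjusted p = 0.166), and Rrp12, a ribosome assembly factor, 0.24 (SE 0.14, unadjusted p = 0.0976). Fau had -0.11 (SE 0.17, unadjusted p = 0.507), and Rps6kb1, the kinase of Rps6, -0.17 (SE 0.08, unadjusted p = 0.0549). Rps6kb1 had 70.4, 70.9, 74.1, 71.4 and 72.6 CPM in vehicle and 68.0, 64.4, 64.7, 61.3 and 61.8 CPM in AM6545 libraries. All of its AM6545 values lay below all of its vehicle values, as in 0.118% of all genes, while its adjusted p was 0.9999.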

How the data were processed

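Per the labels' protocols, a column kit gave total RNA of hippocampal synaptoneurosomes and a SMARTer kit for small inputs the libraries. What the authors deposited are estimated counts, in a gene table and a transcript table, and 38.6% of the gene values were not whole. Salmon 1.5.2 and mm10 are named in the submitters' processing notes; the annotation release and use of strand are not given in the sources used here. Groups and replicate numbers came from the titles.

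Estimated counts were rounded and fitted over all genes with edgeR 4.0.16 in R 4.3.3 (TMM; filterByExpr, minimum count 10 and total 15; robust quasi-likelihood; group alone). Standard errors are the log2 fold change over the square root of the F statistic. Log2 CPM used TMM and a prior count of 2; transcript CPM used library totals. Per-length levels, transcript names and shared 31-base words used GENCODE M21, whose gene versions equal those of the table for 11 genes; transcripts it does not hold had 0.732% of the counts. The fits were tested on simulated data. At an adjusted p under 0.05, 2 of 50 genes changed 1.25-fold and 30 of 48 changed 1.5-fold were called, with 8 of 14070 unchanged genes. For transcripts the calls were 0 of 47 at 1.25-fold, 1 of 49 at 1.5-fold, 11 of 44 at 2-fold and 20 of 47 at 3-fold. Small changes would mostly be missed, and in transcripts larger changes as well. Alternatives were DESeq2 1.42.0, limma 3.58.1 (voom), other scalings and filters, no robust step, a replicate block and leaving out each library.

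Members and lists were chosen with earlier results of these data known. Named by rule were the 3 members of smallest p in each direction, the 4 highest and 4 lowest per length in each subunit, Rpsa and the Rplp genes, like-named pairs, the extremes of correlation and variation, 2 transcripts per direction, the gene of smallest p in each list and the 3 closest other genes; some items this rule names are not reported here. Counts are of amplified reads, and the tables give no error for the division of reads between copies.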

Additional observations from a re-analysis of the deposited data

Results flagged for a closer look

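In 102 checks for a library far from the others of its group, over 51 measures in each group, 3 stood out, where chance alone would give about 5.1, or 1 in 20. Among the members it was Rpl7l1, which had 94.8 CPM in vehicle 1 and 69.8 to 75.4 CPM in the other vehicle libraries. The choroid plexus and ependyma markers had a mean log2 CPM of 1.33 in vehicle 4, against 5.60 to 6.05 in the other vehicle libraries. The red blood cell markers had a mean log2 CPM of 7.44 in AM6545 3, against 5.38 to 5.91 in the other AM6545 libraries.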

How the results depend on the processing

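No member passed an adjusted p of 0.05 under any setting run: DESeq2 size factors, library totals, DESeq2's Wald test, limma-voom with quality weights, no robust step, no filter, a filter of 10 counts in each library, the replicate block and leaving out each library in turn. At an unadjusted p under 0.05 the count was 1 without a filter (Rpl39l, edgeR, unadjusted p = 0.0187, which has at most 2 counts in a library) and 0 to 2 with a library left out. The members' median log2 fold change was -0.09 to -0.05 over these settings and -0.16 to 0.06 with a library left out (large subunit -0.16 to 0.06, small subunit -0.16 to 0.06). With a library left out, the difference in the members' share ranged from -0.053 to 0.021 percentage points, that in the large to small ratio from -0.02 to 0.00316 (log2), the median correlation from 0.839 to 0.891, and the count of transcripts past the adjusted p stayed at 0.

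Fold changes near 0 changed sign in places. Under limma-voom they were -0.0281 for Rps28, -0.0044 for Rps29, -0.0089 for Rpl37a, 0.043 for Rpl3, -0.191 for Rpl39, -0.0442 for Rps20, 0.0063 for Rplp0, -0.0941 for Rpl22l1 and -0.082 for Rpl36al. Rps9 was 0.0113 with library totals, 0.00085 without a filter and 0.0076 with the replicate block. Rps4x was -0.0035 with DESeq2's test, -0.0036 with its size factors and -0.0010 with at least 10 counts in every library. With a library left out, ranges that crossed 0 were those of Rpl37a (-0.00392 to 0.188), Rpl13 (-0.22 to 0.0246), Rpl3 (-0.125 to 0.0737), Rpl4 (-0.164 to 0.00707), Rpl41 (-0.166 to 0.076), Rpl35 (-0.233 to 0.0714), Rpl36a (-0.169 to 0.0211), Rpl39 (-0.0584 to 0.15), Rpl22 (-0.0871 to 0.0304), Rps6 (-0.127 to 0.0715), Rps9 (-0.101 to 0.0672), Rps2 (-0.15 to 0.0753), Rps27 (-0.202 to 0.0773), Rps20 (-0.0626 to 0.141), Rpsa (-0.195 to 0.053), Rplp0 (-0.199 to 0.0786), Rplp1 (-0.166 to 0.0871), Rplp2 (-0.194 to 0.0737), Rpl7 (-0.164 to 0.00985), Rpl7l1 (-0.0231 to 0.0958), Rpl22l1 (-0.0753 to 0.113), Rpl36al (-0.114 to 0.149), Rps4x (-0.0852 to 0.123), Rpl14 (-0.156 to 0.0501) and Rpl36 (-0.206 to 0.139). The cause was not tested.

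Same-numbered libraries correlated at -0.186 to 0.393 in their deviations from the group means, and 5 of 10 libraries correlated best with their own number. These values cannot decide whether the numbers pair the libraries. With the replicate block the members' median was -0.05, with 0 members past either threshold and 0 transcripts past the adjusted p.

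With 5 libraries a group, precision is limited to each gene's own interval.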
